A study of Mus musculus with 6 samples.

Results

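The response of C2C12 cells to BTZ was compared between cultures in differentiation medium and cultures in growth medium. C2C12 myoblasts, a line from mouse skeletal muscle, proliferate while serum is plentiful and can fuse into multinucleated myotubes once it is reduced. Of the 6 arrays of the series, 4 entered the comparison, 1 array a group. The growth-medium groups were an untreated culture in 10% fetal bovine serum (FBS) and a culture in the same serum given 10 nM BTZ for 24 h. The differentiation-medium groups were first grown in 10% FBS and then moved to 2% differentiation medium. One was left untreated and harvested on day 5, and the other received 10 nM BTZ on day 4 and was harvested on day 5. The labels give all cultures as C2C12 myoblasts, 1 line, and name no genetic change, so medium and myotube formation are used here only as far as the markers below show them. Serum, days in culture and differentiation differ together between the media and cannot be told apart. The other arrays of the series held TNF-α cultures and served here as an alternative reference.

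The labels do not spell out BTZ, an abbreviation commonly used for bortezomib, which blocks the chymotrypsin-like activity of the proteasome. The proteasome degrades ubiquitin-tagged proteins. When it is blocked, cells are known to make more proteasome subunits and heat shock proteins, to activate the transcription factor NRF2, whose turnover depends on the proteasome, and to activate the integrated stress response through ATF4. Muscle differentiation is driven by the basic helix-loop-helix factors MyoD and myogenin, which bind E-boxes in the control regions of contractile and synaptic genes, and it is accompanied by exit from the cell cycle.

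For each gene the BTZ difference in growth medium (BTZ minus untreated, log2) was subtracted from the BTZ difference in differentiation medium. This difference of differences is above 0 where the BTZ culture stood higher, relative to its own untreated culture, in differentiation medium than in growth medium, and below 0 in the opposite case. A gene was used where at least 1 of the 4 arrays reached the floor, the median of all values (5.08 on the log2 scale), which left 13345 of 22180 genes. With 1 array a group there is no replicate error and no test, and a difference of 2-fold (1 on the log2 scale) is used only as a rule of size.

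The array medians lay between 5.07 and 5.11 on the log2 scale. The labelled cells were checked against marker levels. The median of 10 muscle markers was 6.06 in untreated growth medium, 5.83 with BTZ there, 11.2 in untreated differentiation medium and 7.46 with BTZ there. The median of 6 markers of dividing myoblasts was 9.90, 7.49, 7.87 and 6.72 in the same order. Muscle markers thus stood highest in untreated differentiation medium, and the median of the dividing myoblast markers stood highest in untreated growth medium. These markers include the myogenic genes Pax7 and Myf5. Of them all, only Pax7 was highest in untreated differentiation medium (8.06, against 7.50 in untreated growth medium). Among 30 markers of fat, bone, cartilage, blood and vessel cells, between 7 and 9 reached the floor on each array, with medians between 4.71 and 4.83.

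Of the 13345 genes, 439 (3.29%) had a difference of differences at least 2-fold above 0 and 671 (5.03%) at least 2-fold below 0, together 8.32%. Among the 11125 genes that reached the floor on all 4 arrays, 310 (2.79%) were above and 462 (4.15%) below. The median over all genes was -0.01 and the quartiles were -0.35 and 0.30. The genes below 0 lay farther out: 95 of them passed 4-fold and 34 passed 8-fold, against 38 and 2 of the genes above 0. The BTZ difference itself was at least 2-fold above 0 for 680 genes (5.1%) and below 0 for 838 (6.28%) in growth medium, 11.4% together. In differentiation medium these were 825 (6.18%) and 1210 (9.07%), 15.2% together. Of the 671 genes with a low difference of differences, 364 (54.2%) were within 2-fold with BTZ in growth medium and at least 2-fold lower in differentiation medium. Another 159 were within 2-fold in each medium, 71 were higher in growth medium and within 2-fold in differentiation medium, 67 were lower in both, 7 were higher in both and 3 were higher in growth medium and lower in differentiation medium. Of the 439 genes above 0, 156 (35.5%) were lower with BTZ in growth medium and within 2-fold in differentiation medium. A further 125 were within 2-fold in each, 101 were within 2-fold in growth medium and higher in differentiation medium, 30 were lower in both, 25 were higher in both and 2 were lower in growth medium and higher in differentiation medium. Among the genes above 0, a signal lower with BTZ in growth medium was thus more frequent than one higher with BTZ in differentiation medium. Both BTZ differences share no array, and across the 13345 genes, which are not independent replicates, Pearson's r between them was 0.664.

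**Figure D1:**
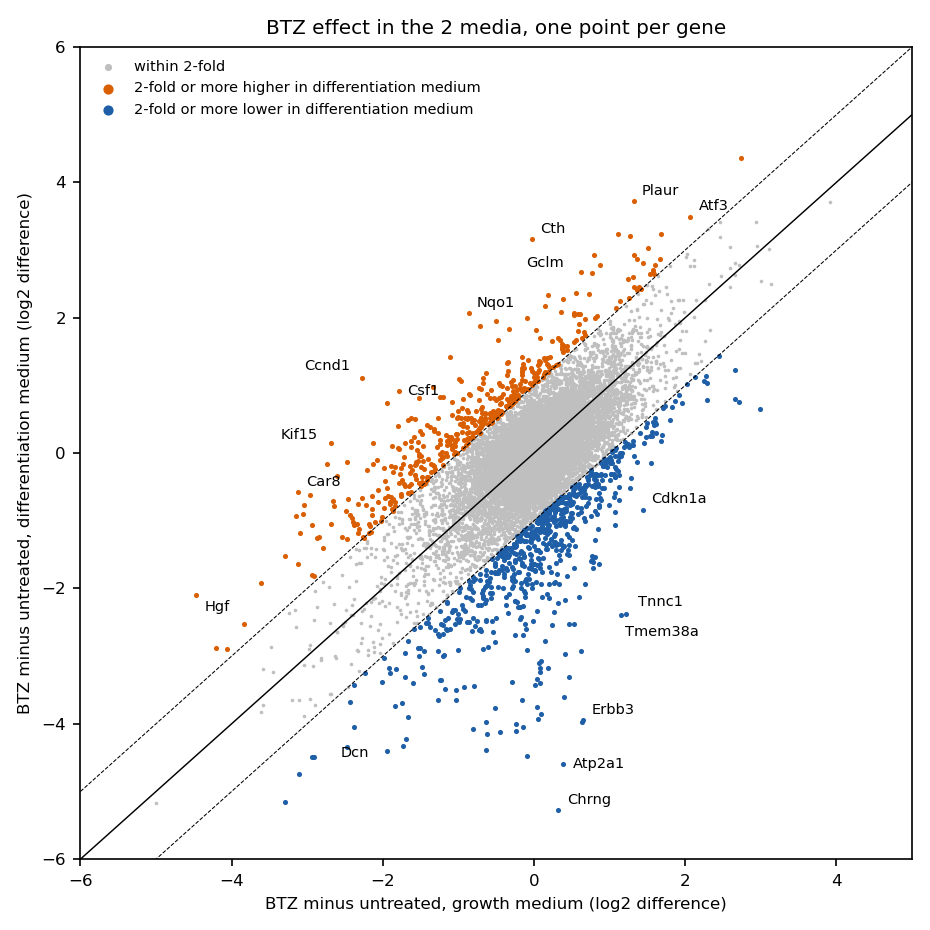
Each point is 1 of the 13345 genes, with its BTZ difference (log2) in growth medium on the x axis and in differentiation medium on the y axis. Orange points are the 439 genes at least 2-fold above the diagonal and blue points the 671 at least 2-fold below it; the dashed lines mark 2-fold, and Chrng and Atp2a1 lie lowest among the labelled genes.

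The 4 genes chosen to mark the comparison spanned its whole range. Chrng encodes the fetal gamma subunit of the muscle acetylcholine receptor. Its log2 signal was 5.25 in untreated growth medium, 5.58 with BTZ there, 10.99 in untreated differentiation medium and 5.71 with BTZ there. Only the untreated differentiation culture was far above the floor. The BTZ difference was 0.32 in growth medium and -5.27 in differentiation medium, a 38.7-fold lower signal, so the difference of differences was -5.60, the lowest of all named genes.

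Ccnd1 encodes cyclin D1, which drives cells from G1 into S phase with Cdk4 or Cdk6. It stood at 10.08 in untreated growth medium, 7.80 with BTZ there, 7.86 in untreated differentiation medium and 8.96 with BTZ there. The untreated culture was the higher one in growth medium and the lower one in differentiation medium. BTZ minus untreated was -2.27 in growth medium and 1.10 in differentiation medium, and the difference of differences was 3.38, the highest of all named genes.

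Cth encodes cystathionine gamma-lyase, which makes cysteine from cystathionine. Its signal was 6.07, 6.04, 4.39 and 7.55 in the order untreated growth medium, growth medium with BTZ, untreated differentiation medium and differentiation medium with BTZ, the order kept for all 4-value lists that follow. The growth-medium cultures were nearly equal, while in differentiation medium the signal went from below the floor to the highest of the 4 arrays, 8.95-fold apart. The difference of differences was 3.19, from BTZ differences of -0.03 and 3.16. Nqo1, a quinone reductase and classic NRF2 target, stood at 9.52, 8.65, 5.97 and 8.03. BTZ went with a lower Nqo1 signal in growth medium (-0.86) and a higher one in differentiation medium (2.06), which gave 2.93. The untreated cultures differed by -3.55 between media and the BTZ cultures by -0.62, so Nqo1 with BTZ in differentiation medium remained under both growth-medium levels. For TNF-α, whose difference of differences uses the same 2 untreated arrays, the values of Ccnd1, Cth, Nqo1 and Chrng were 0.92, 1.29, 0.88 and 0.46.

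**Figure D2:**
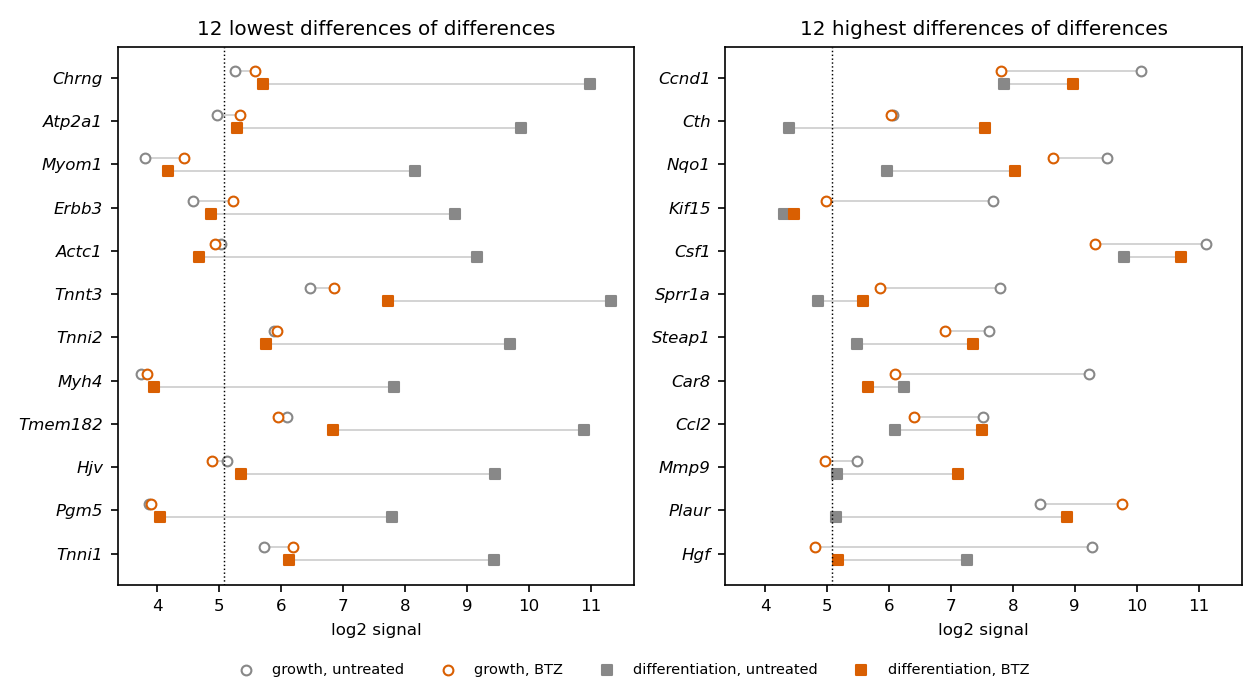
The log2 signal on each of the 4 arrays (x axis) is shown for the 12 genes with the lowest and the 12 with the highest difference of differences; circles are growth medium, squares differentiation medium, grey untreated, orange BTZ, and the dotted line is the floor of 5.08. In the left panel the untreated differentiation culture stands apart from the other 3 arrays for all 12 genes, while the right panel holds several shapes.

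Muscle genes were frequent at the low end. Of 44 used sarcomere genes, 29 lay below 0 by 2-fold or more and 1 above, with a median of -1.85. The background over all genes, for this and every later list count of differences of differences past 2-fold, was 5.03% below and 3.29% above. The median over all 49 measured sarcomere members was -1.55. Among 34 genes that couple excitation to contraction or build the neuromuscular junction, 18 were below and 0 above, with a median of -1.24. Of 21 myogenic factors and fusion genes, 10 were below and 1 above, with a median of -0.98. The 3 lists had median BTZ differences of 0.02, -0.16 and -0.26 in growth medium and -1.77, -1.63 and -1.17 in differentiation medium. In bulk RNA, fewer cells of a type and less RNA per cell cannot be told apart. A gene under the floor has less room to show a lower value, and 17 of the 44 sarcomere genes were under it on both growth-medium arrays. Among the other 27, 17 were below 0 by 2-fold or more, with a median of -1.61. Without such genes, 14 of 29 were below in the excitation-contraction list (median -0.88) and 6 of 17 in the myogenic list (median -0.86).

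The contractile genes with the lowest values included thin filament troponins of both fibre types and a thick filament myosin of fast fibres. Myom1, a protein of the M-band that links thick filaments, stood at 3.80, 4.43, 8.15 and 4.17 (-4.61). The cardiac actin Actc1, also the main actin of early skeletal muscle, stood at 5.03, 4.94, 9.16 and 4.68 (-4.38). With BTZ in differentiation medium both genes were under the floor, close to their level in growth medium. The fast troponins Tnnt3 and Tnni2 had values of -3.99 and -3.98, the slow troponin Tnni1 one of -3.78 and the fast myosin heavy chain Myh4 one of -3.96. Tnnt3 kept a signal above growth medium with BTZ in differentiation medium, at 7.72 against 6.86, and Myh4 did not reach the floor there, at 3.96. Tnnc1, the slow and cardiac calcium-binding troponin, stood at 6.21, 7.42, 11.08 and 8.69. It was higher with BTZ in growth medium by 1.21 and lower in differentiation medium (-2.38).

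Not every structural gene followed. The genes of this paragraph were chosen after their values were seen. The intermediate filament gene Des stood at 10.77, 9.65, 11.69 and 10.57, with BTZ differences of -1.13 and -1.12 and a difference of differences of 0.01. The Z-disc genes Tcap (0.13) and Pdlim3 (0.23) and the stress-responsive titin partner Ankrd1 (0.13) were also near 0. A value near 0 means similar BTZ differences in both media, not an unchanged signal. Pdlim3 was lower with BTZ in growth medium (-2.39) and in differentiation medium (-2.15). Untreated Tcap hardly differed between growth medium (6.31) and differentiation medium (6.37). The titin gene Ttn, which encodes the giant elastic protein of the sarcomere, had -0.65, and the main skeletal actin Acta1 had -0.47. Ttn stood at 11.08 and Acta1 at 11.51 with BTZ in differentiation medium, far above both growth-medium arrays. The 1 sarcomere gene past 2-fold in the other direction was Xirp2, an actin-binding protein of the Z-disc and junctions, at 3.98, 4.17, 4.16 and 6.50 (2.15). Its signal reached the floor only with BTZ in differentiation medium.

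Among the calcium handling and synaptic genes, Atp2a1, the calcium pump SERCA1 of fast fibres, stood at 4.96, 5.34, 9.87 and 5.28 (-4.97). Srl, the sarcoplasmic reticulum protein sarcalumenin, stood at 6.13, 5.49, 10.50 and 6.11 (-3.76), and reached the floor on all 4 arrays. Chrnd, the delta subunit of the acetylcholine receptor, stood at 6.17, 6.18, 10.42 and 6.99 (-3.45). For Srl and Chrnd the growth-medium values were above the floor and left some room for a lower signal. Their BTZ differences in differentiation medium were -4.39 and -3.43, and drops of that size in growth medium would have ended under the floor. Chrnd was equal in growth medium to within 0.02. Tmem38a, the potassium channel TRIC-A of the sarcoplasmic reticulum, stood at 6.19, 7.34, 9.90 and 7.50 (-3.55). Erbb3, a neuregulin receptor, stood at 4.58, 5.23, 8.80 and 4.86 (-4.60). Other low genes were Tmem182, a membrane protein of muscle cells (-3.90), Hjv, the BMP co-receptor hemojuvelin (-3.87), and Pgm5, a phosphoglucomutase-related protein of muscle adhesion sites (-3.79).

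Among the regulators, myogenin (Myog) stood at 6.71, 6.08, 10.90 and 6.93 (-3.34) and the fusion protein myomaker (Mymk) at 5.56, 5.32, 11.65 and 7.64 (-3.77). Myog with BTZ in differentiation medium was within 0.85 of Myog with BTZ in growth medium, whereas Mymk remained 2.33 above it. Myod1 stood at 8.12, 7.44, 9.73 and 6.83 (-2.22), and here the BTZ culture in differentiation medium had the lowest of the 4 signals. Klhl41, a Kelch protein that stabilises thin filaments, had -2.61. The myogenic factor Myf5, chosen after its values were seen, was the 1 gene of its list above 2-fold, at 8.78, 6.94, 7.88 and 7.66 (1.63). Its BTZ difference was -1.84 in growth medium and -0.21 in differentiation medium. Of 16 Id and Notch genes 2 were below and 1 above: the ligand Dll1 (-1.19, with probe sets from -1.81 to -0.57), the repressor Hes6 (-1.09) and the ligand Jag1 (1.09).

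The promoters of Chrng and Myog are shown because both genes were at the low end and E-boxes are the binding sequence of myogenic factors. Each window runs from 250 bases before to 50 bases after the RefSeq start (build GRCm38.p6), 5′ to 3′ on the gene's strand, with E-boxes (CANNTG, the same on both strands) in capitals. Chrng lies at chr1:87205561-87205860, plus strand, and Myog at chr1:134289754-134290053, plus strand.
Chrng: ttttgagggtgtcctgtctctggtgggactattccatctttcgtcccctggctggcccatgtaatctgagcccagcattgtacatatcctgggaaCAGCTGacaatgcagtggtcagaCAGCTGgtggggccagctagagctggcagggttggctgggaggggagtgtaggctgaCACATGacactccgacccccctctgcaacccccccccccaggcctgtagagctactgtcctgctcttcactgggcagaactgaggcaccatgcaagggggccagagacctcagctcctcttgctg
Myog: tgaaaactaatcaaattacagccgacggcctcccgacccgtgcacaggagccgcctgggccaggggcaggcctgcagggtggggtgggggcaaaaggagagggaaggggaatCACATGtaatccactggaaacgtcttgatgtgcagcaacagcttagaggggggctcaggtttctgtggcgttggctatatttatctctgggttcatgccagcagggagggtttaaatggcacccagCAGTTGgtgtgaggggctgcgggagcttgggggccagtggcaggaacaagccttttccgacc
The script found 3 E-boxes in the Chrng window, starting at -155, -132 and -75, and 2 in the Myog window, at -138 and -12, counting the start as 0. A match of the antioxidant sequence described below overlaps the first Chrng E-box and is not capitalised. Of 50 promoters of sarcomere genes 86% held an E-box, of 28 of the excitation-contraction list 78.6% and of 20 of the myogenic list 50%, against 72.3% of all 32851 promoters. A match describes letters and was not tested for binding.

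The Mir133b locus, chosen after its values were seen, had the lowest value of 143 microRNA loci above the floor. It stood at 5.07, 4.62, 8.41 and 4.29, a difference of differences of -3.66, with the same shape as the muscle genes. The array reads the locus, not the mature RNA. Its mature products in RefSeq (GRCm38.p6, chromosome 1), with the seed of bases 2 to 8 in capitals, have different seeds.
mmu-miR-133b-5p: gCUGGUCAaacggaaccaaguc
mmu-miR-133b-3p: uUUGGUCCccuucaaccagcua

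Mitotic genes mostly stood above 0, while 0 of them were 2-fold higher with BTZ in either medium. Of 42 genes of mitosis, 21 had a difference of differences at least 2-fold above 0 and 0 below, with a median of 0.99. All 42 were at least 2-fold lower with BTZ in growth medium (median -2.12, against 6.28% of all genes), and 26 were so in differentiation medium (median -1.10, against 9.07%). The median signals were 9.13, 6.89, 6.22 and 5.13. Untreated differentiation cultures thus already stood below BTZ-treated growth cultures, and the BTZ culture in differentiation medium was near the floor. Only 22 of the 42 reached the floor on all 4 arrays, and the others had less room for a lower signal on some arrays. Birc5 (survivin), which holds the chromosomal passenger complex together, stood at 8.11, 4.96, 4.61 and 3.68 (2.23), with 3 arrays under the floor. Plk1, a mitotic kinase, stood at 9.71, 6.66, 6.56 and 5.66 (2.15), Incenp, a partner of survivin, at 8.27, 6.86, 6.22 and 6.63 (1.82), and Cenpa, the centromeric histone, at 8.41, 6.78, 5.83 and 6.02 (1.81). Plk1, Incenp and Cenpa were above the floor on all 4 arrays, and Incenp and Cenpa were slightly higher with BTZ in differentiation medium. Outside the list, the spindle motors Kif15 (7.68, 4.99, 4.31 and 4.47) and Kif22 (8.50, 6.03, 5.93 and 5.81) had 2.84 and 2.34.

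DNA replication genes shared the direction with smaller sizes: 5 of 44 were above and 1 below 2-fold, with a median of 0.29. Above were the salvage enzyme Tk1 (1.85), the origin licensing factor Cdc6 (1.73), Uhrf1, which maintains DNA methylation (1.60), the polymerase subunit Pold2 (1.58) and the helicase subunit Mcm7 (1.23). The 1 gene below was the transcription factor E2f2, at 5.89, 5.60, 7.22 and 5.22 (-1.70). Of 19 G1 cyclins, their kinases and inhibitors, 3 were above and 2 below, with a median of 0.20. Cdk6, a partner of cyclin D1, stood at 8.88, 6.74, 7.64 and 7.79 (2.29), a drop with BTZ in growth medium alone. Skp2, the ubiquitin ligase subunit that targets the inhibitor p27, had 1.70, from BTZ differences of -0.85 and 0.85. Below 0 were the inhibitor Cdkn1a (p21) and Ccnd3, cyclin D3, which has a role in differentiated muscle. Ccnd3 stood at 7.96, 6.45, 9.02 and 6.45 (-1.06).

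Cdkn1a stood at 9.06, 10.50, 12.38 and 11.54. BTZ went with a higher signal in growth medium (1.44) and a lower one in differentiation medium (-0.84), which gave -2.27, and the signal with BTZ in differentiation medium was still above both growth-medium arrays. Cdkn1a is also a p53 target. The 25 p53 targets had a median of 0.03, near that of all genes. Among them 3 (12%) were below 2-fold and 0 above, against 5.03% and 3.29% of all genes. The others were Eda2r, a receptor of the TNF receptor family, at 5.31, 8.03, 8.65 and 9.40 (-1.96), and Pmaip1, the death protein Noxa, at 5.86, 7.26, 7.14 and 7.43 (-1.10). For Eda2r and Pmaip1 the untreated differentiation culture already lay near or above the BTZ level of growth medium. Mdm2, the p53 ligase and chosen after its values were seen, had BTZ differences of 1.87 and 1.90.

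Antioxidant genes leaned towards differentiation medium. Of 30 NRF2 targets 9 (30%) were at least 2-fold above 0 and 1 (3.33%) below, with a median of 0.64. Over all genes the shares were 3.29% above and 5.03% below. The haem-degrading enzyme Hmox1 stood at 10.03, 10.83, 8.53 and 11.46 (2.14). Gclm, the modifier subunit of the enzyme that starts glutathione synthesis, stood at 9.68, 10.30, 7.63 and 10.32 (2.07), and the glutathione transferase Gsta4 at 11.16, 11.89, 8.95 and 11.29 (1.62). For these 3 genes the untreated differentiation culture was the lowest array. The BTZ cultures of the 2 media lay close together for Gclm (0.02 apart), while Hmox1 was 0.63 higher in differentiation medium. Over the list, the untreated cultures differed between media by a median of -0.48 and the BTZ cultures by -0.02. The 1 gene below 2-fold was the carbonyl reductase Cbr1 (-1.01). The other 5 past 2-fold above, chosen after their values were seen, were Txnrd1, Srxn1, Gsr, Me1 and the transporter Abcc4, between 1.03 and 1.30.

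The integrated stress response followed. Of 42 genes 8 were above and 2 below 2-fold, with a median of 0.48. Above 0 were 35 of the 42, against 6483 of all 13345 genes. Besides Cth, the list held Psat1, an aminotransferase of serine synthesis, at 8.65, 7.68, 7.28 and 8.34 (2.03), and Aldh1l2, a mitochondrial folate enzyme, at 8.18, 9.68, 6.82 and 9.84 (1.52). Psat1 was lower with BTZ in growth medium and higher in differentiation medium, whereas Aldh1l2 was higher in both. The 2 genes below were the stress hormone Fgf21 (-1.33) and the lipoprotein receptor Vldlr (-1.27). Atf3, a stress-induced transcription factor, stood at 7.06, 9.13, 6.60 and 10.10 (1.43). In the list of cysteine and glutathione genes 3 of 21 were above and 1 below (median 0.18). Ggct, which degrades gamma-glutamyl dipeptides, had 1.41, and the secreted peroxidase Gpx3 stood at 6.68, 5.82, 8.72 and 6.23 (-1.63).

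The promoters of Gclm and Atf3 are shown as examples of the 2 pathways, since both genes were higher with BTZ in each medium and more so in differentiation medium. Capitals mark the antioxidant sequence TGACNNNGC in Gclm (chr3:122245307-122245606, plus strand) and the amino acid response sequence TGATGNAAN in Atf3 (chr1:191183284-191183583, minus strand), each searched on both strands and found here on the strand opposite to the printed one. The window, orientation and build are those given above.
Gclm: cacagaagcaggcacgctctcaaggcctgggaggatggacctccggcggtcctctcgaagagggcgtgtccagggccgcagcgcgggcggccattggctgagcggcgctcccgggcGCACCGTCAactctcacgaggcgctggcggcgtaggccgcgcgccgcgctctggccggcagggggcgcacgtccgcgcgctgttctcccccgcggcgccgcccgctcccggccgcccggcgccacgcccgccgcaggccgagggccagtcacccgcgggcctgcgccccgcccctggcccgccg
Atf3: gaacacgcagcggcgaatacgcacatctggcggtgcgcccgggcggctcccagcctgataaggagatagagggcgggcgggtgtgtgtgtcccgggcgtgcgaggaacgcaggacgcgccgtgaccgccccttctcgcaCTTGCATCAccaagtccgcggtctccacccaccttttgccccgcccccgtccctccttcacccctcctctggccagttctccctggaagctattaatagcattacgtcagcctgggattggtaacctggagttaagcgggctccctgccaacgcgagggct
The Gclm match starts at -134 and the Atf3 match at -111. The antioxidant sequence was in 28.6% of 42 promoters of NRF2 targets, in 30.4% of 46 promoters of the integrated stress response list and in 12.4% of all promoters. The amino acid response sequence was in 28.3% of the 46 and in 3.95% of all.

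Most proteasome genes were higher with BTZ in both media. Of 41 proteasome genes, 0 were past 2-fold in either direction, with a median of 0.27 and a range from -0.58 to 0.99. Besides subunits, the list holds assembly factors, deubiquitinating enzymes and the transcription factor gene Nfe2l1, which had the lowest value (-0.58). The 41 genes were at least 2-fold higher with BTZ in 10 cases in growth medium (5.1% of all genes) and in 25 in differentiation medium (6.18%). The largest values were those of the core subunit Psma1 (8.95, 9.79, 7.96 and 9.79) at 0.99 and the deubiquitinating lid subunit Psmd14 (8.46, 9.34, 7.69 and 9.50) at 0.93. With BTZ, Psma1 had the same signal in both media, while its untreated cultures differed. Of 35 heat shock genes 5 (14.3%) were above and 1 (2.86%) below, against 3.29% and 5.03% of all genes. Their median was 0.34, with median BTZ differences of 0.84 in growth medium and 1.18 in differentiation medium. The mitochondrial chaperonins Hspd1 (10.36, 10.89, 9.07 and 11.10) and Hspe1 had 1.51 and 1.17, the HSP70 partner Dnajb1 had 1.17, from 1.61 and 2.78, the collagen chaperone Serpinh1 had 1.25 and the HSP90 cochaperone Fkbp4 had 1.01. The gene below was the cochaperone Dnajb5 (-1.02). Of 25 genes of the unfolded protein response of the endoplasmic reticulum 3 (12%) were above and 1 (4%) below (median 0.26). Their median BTZ differences were 0.14 and 0.15, with 2 of the 25 at least 2-fold higher in each medium, against 5.1% and 6.18% of all genes. Above were the HSP70 family chaperone Hspa5 (1.18), Sdf2l1 (1.10), a component of the reticulum's chaperone complexes, and the secreted factor Manf (1.04). Sdf2l1 and Manf were lower with BTZ in growth medium, by differences of -0.80 and -0.81, and Serpinh1 was too (-0.65). Below was Crebrf, a regulator of CREB3, at 6.29, 7.57, 7.66 and 7.30 (-1.65). The 13 housekeeping genes had a median of 0.07, and Hprt, of purine salvage, was the 1 past 2-fold (1.10).

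**Figure D3:**
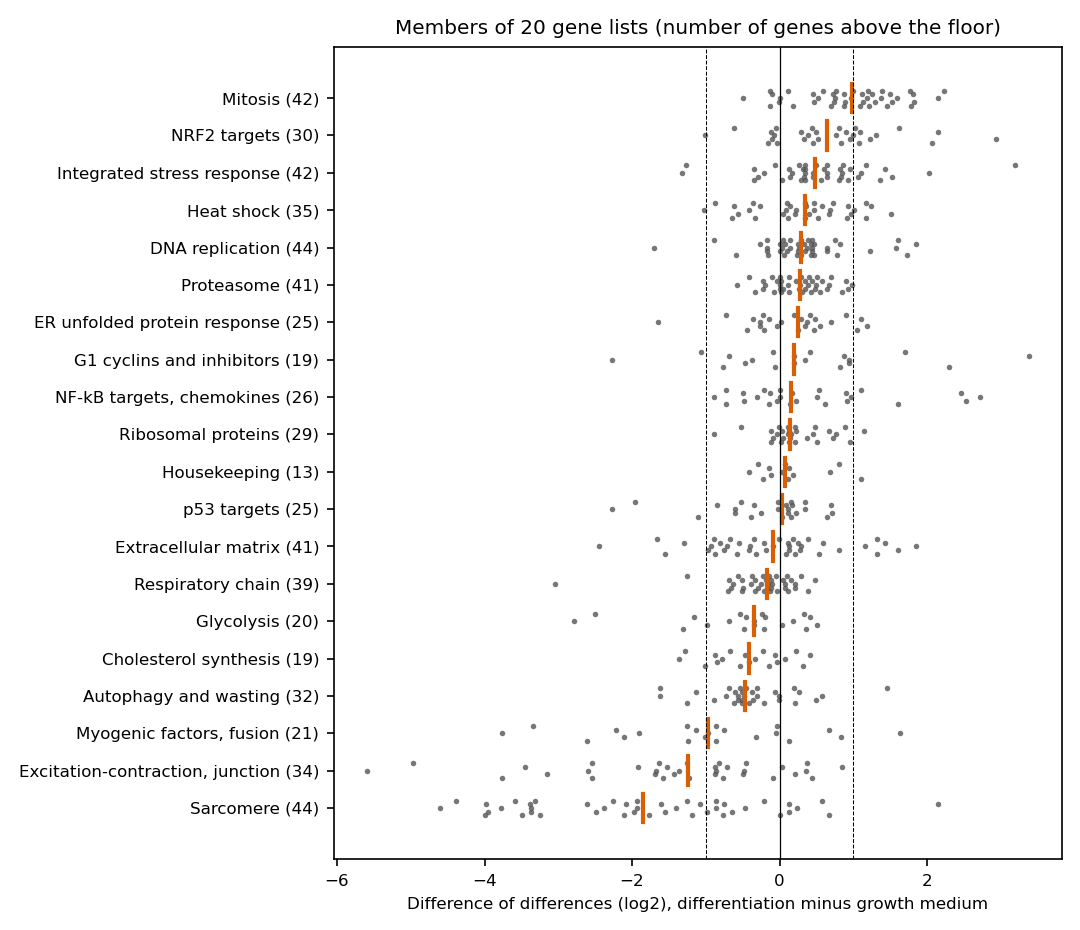
For 20 gene lists, each point is the difference of differences (log2, x axis) of 1 member above the floor and the bar is the list's median; the dashed lines mark 2-fold. The sarcomere list has the lowest median shown (-1.85), the mitosis list the highest (0.99), and all 41 proteasome genes lie inside the lines.

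Several of the 12 genes with the highest values encode secreted or membrane proteins. Csf1, the macrophage growth factor, stood at 11.12, 9.33, 9.80 and 10.72 (2.71). Ccl2, a monocyte chemokine, stood at 7.52, 6.41, 6.09 and 7.51 (2.52). Both were lower with BTZ in growth medium and higher in differentiation medium. Plaur, the urokinase receptor, stood at 8.44, 9.75, 5.15 and 8.87 (2.40) and was higher with BTZ in both. Mmp9, a gelatinase, stood at 5.48, 4.98, 5.17 and 7.12 (2.46), with the 3 other arrays close to the floor. Ptgs2, the inducible cyclooxygenase, stood at 10.83, 12.15, 9.18 and 12.12 (1.61), where both BTZ cultures were nearly equal. Of 26 NF-kB targets and chemokines 5 were above 2-fold and 0 below, with a median of 0.16: Csf1, Ccl2, Mmp9, Ptgs2 and the chemokine Ccl5 (1.11). Hgf, the ligand of the Met receptor, stood at 9.28, 4.80, 7.27 and 5.18 (2.38). It was lower with BTZ in both media, and its growth-medium BTZ signal was under the floor. Steap1, a membrane protein of the metalloreductase family, stood at 7.61, 6.90, 5.48 and 7.36 (2.59), the small proline-rich protein Sprr1a at 7.80, 5.85, 4.85 and 5.58 (2.68), and the carbonic anhydrase relative Car8 at 9.23, 6.11, 6.24 and 5.66 (2.54). The largest part of the Car8 and Sprr1a values came from the lower signal with BTZ in growth medium.

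Immediate early genes were mixed, with 1 of 28 (3.57%) above and 3 (10.7%) below (median -0.10). Over all genes the shares were 3.29% above and 5.03% below. The orphan receptor Nr4a2 stood at 8.39, 7.05, 6.73 and 7.71 (2.32), while its relative Nr4a3 (-1.09), the phosphatase Dusp1 (-1.32) and the AP-1 subunit Junb (-1.16) were below. Of 11 interferon-stimulated genes the peptide transporter Tap1 was above (1.18) and Ifit3, an antiviral protein, below (-1.36). Of 11 metal-handling genes 2 were above, Hmox1 and the zinc importer Slc39a10 (1.32), and 2 below, the transferrin receptor Tfrc (-1.71) and the iron exporter Slc40a1 (-1.61).

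Matrix genes were lower with BTZ in both media, with medians of -1.23 and -1.52 over 41 genes, and the difference of differences had a median of -0.09 with 6 above and 4 below. Members went in both directions. The small proteoglycan decorin (Dcn) stood at 6.92, 4.97, 11.17 and 6.77 (-2.45) and the basement membrane protein Nid2 at 9.85, 7.47, 11.46 and 7.41 (-1.66). The collagen Col6a3 stood at 9.48, 7.68, 8.01 and 8.07 (1.85) and the collagen crosslinking enzyme Lox at 12.01, 9.14, 11.47 and 10.21 (1.61). Dcn and Nid2 were highest in untreated differentiation medium, Col6a3 and Lox in untreated growth medium. Growth-factor genes of the imprinted and insulin-like growth factor list had a median of -0.51, with 2 of 15 above and 4 below. The lowest was Igf1, at 6.59, 4.85, 9.56 and 5.23 (-2.59), with the imprinted genes Mest (-2.08) and Peg3 (-1.11) also below. The binding protein genes Igfbp4 (-1.44) and Igfbp3 (1.39) went in opposite directions, and the insulin receptor substrate Irs1 was above (1.22).

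In the lists of energy metabolism the genes below 2-fold included muscle isoforms. Of 20 genes of glycolysis and glycogen 4 were below 2-fold and 0 above, with a median of -0.34. They were the muscle glycogen phosphorylase Pygm at 4.82, 5.06, 8.71 and 6.16 (-2.78), the muscle phosphofructokinase Pfkm at 6.81, 7.66, 8.89 and 7.24 (-2.50), the glycogen synthase Gys1 (-1.31) and the muscle phosphoglycerate mutase Pgam2 (-1.16). Without the 5 genes under the floor on both growth-medium arrays, Pygm and Pgam2 among them, 2 of 15 were below and the median was -0.21. Of 39 respiratory chain genes 2 were below, Cox8b at 4.12, 4.65, 6.84 and 4.32 (-3.05) and Cox6a2 at 5.41, 5.78, 7.80 and 6.92 (-1.26), with a median of -0.17. These 2 are 5.13% of the list, close to the 5.03% of all genes. Of the 37 respiratory chain genes that reached the floor in growth medium 1 was below. Cox8b and Cox6a2 encode the heart and muscle forms of cytochrome oxidase subunits. Of 19 cholesterol synthesis genes 3 were below and 0 above (median -0.42). This list was lower with BTZ in both media, with medians of -1.10 and -1.40. In growth medium 12 of the 19 were at least 2-fold lower (6.28% of all genes) and in differentiation medium 15 (9.07%). Fdft1, squalene synthase, stood at 10.52, 8.70, 10.56 and 7.37 (-1.37), the sterol isomerase Ebp had -1.28 and the regulator Srebf2 had -1.01. For 29 genes of ribosomal proteins the median was 0.14, and 1 was past 2-fold, Rplp2 (1.14).

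Of 32 genes of autophagy and muscle wasting 4 were below 2-fold and 1 above, with a median of -0.47. Below 0 were 26 of the 32, against 6862 of all 13345 genes. The ubiquitin ligases of muscle atrophy Trim63 (MuRF1) and Fbxo32 (atrogin-1) stood at 4.91, 5.43, 6.73 and 5.62 (-1.62) and at 7.53, 7.25, 8.95 and 7.05 (-1.62). Both were highest in untreated differentiation medium. The autophagy genes Wipi1 and Map1lc3a, which encodes an LC3 protein of the autophagosome membrane, had -1.26 and -1.14. The muscle ubiquitin ligase subunit Fbxo40 stood at 5.64, 5.50, 6.39 and 7.71 (1.46).

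The medium differences give the other reading of the same 4 arrays, since the difference of differences is also the medium difference with BTZ minus the medium difference without it. Over sarcomere genes the median medium difference was 3.48 in untreated and 0.87 in BTZ cultures. It was 1.84 and 0.64 in the excitation-contraction list, and 1.61 and 0.43 in the myogenic list. Mitotic genes had medians of -2.90 and -1.89. In these 4 lists the BTZ cultures of the 2 media were closer to each other than the untreated ones. Over all genes the SD across genes of the medium difference was 0.68 in untreated and 0.46 in BTZ cultures.

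**Figure D4:**
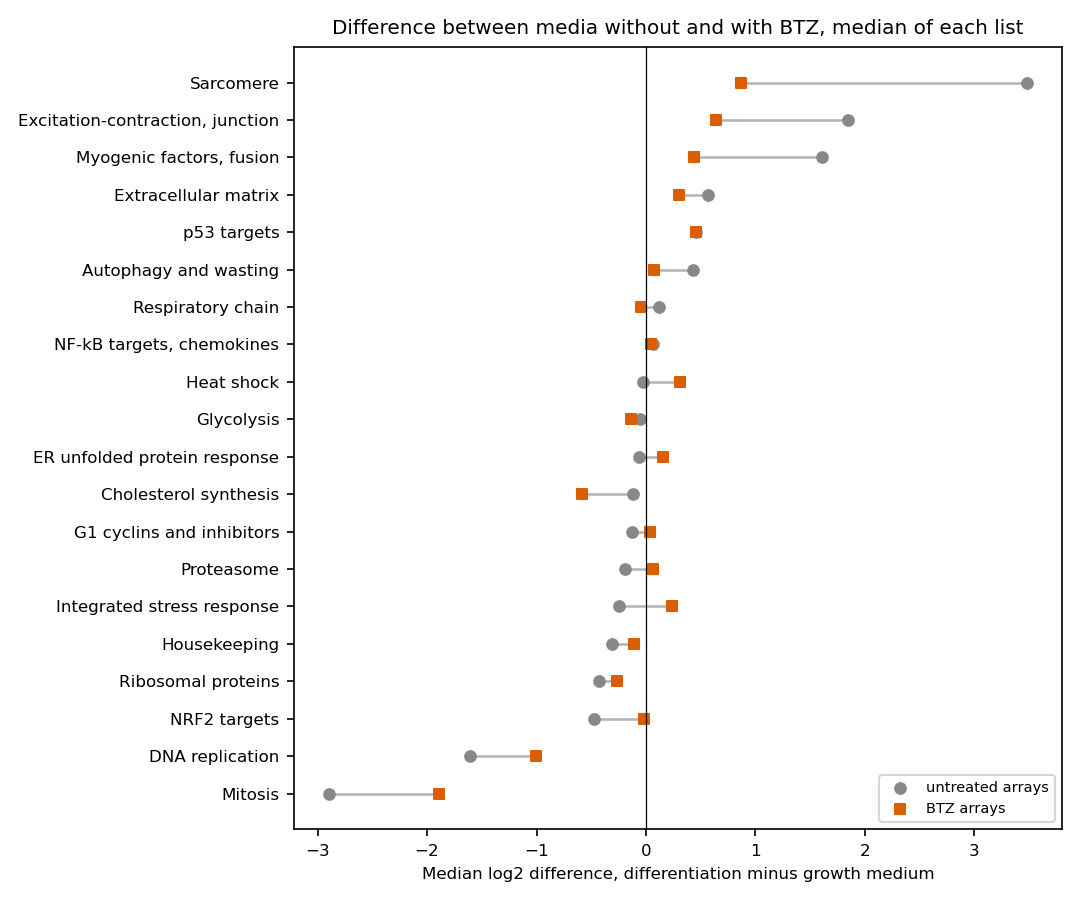
Median difference between differentiation and growth medium (log2, x axis) of each of 20 gene lists, in untreated cultures (grey) and in BTZ cultures (orange). The sarcomere list goes from 3.48 to 0.87 and the mitosis list from -2.90 to -1.89.

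Markers of other cell types were read in the same way. Above the floor were 5 of 9 measured fat cell genes, 4 of 9 of bone and cartilage and 2 of 12 of macrophages and endothelium. Of these 11, 0 were past 2-fold in the difference of differences. With 8.32% of all genes past 2-fold, so few genes cannot be set apart from the rest by this count. The fat cell genes lay between -0.58 (Cidec, a lipid droplet protein) and 0.99 (the lipase Lpl). The macrophage receptor gene Cd14 stood at 6.32, 8.32, 5.95 and 7.75 and was higher with BTZ by 2.01 and 1.80.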

How the data were processed

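Total RNA from 6 C2C12 cultures was read on 1 Affymetrix whole-transcript array each, per the labels. The authors deposited 1 value per probe set and array. The values are taken as log2 signals because the deposited columns run from 1.66 to 14.06; how they were summarized, background-corrected and normalized is not given in the sources used here. Detection calls were not used.

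Of 41345 probe sets, 23521 named 1 gene symbol in the platform annotation, 1814 named several and 16010 were unnamed; the last 2 kinds were not used for genes. Entrez numbers of 23328 were in the RefSeq table, and 0 symbols differed. Single-symbol probe sets of 1 gene were averaged. Of 801 used genes with several, 95 had probe sets 2-fold or more apart. The members and the 29 gene lists were chosen with earlier results of these data known. Genes named were the 4 markers, the 12 highest and 12 lowest, the 8 highest and lowest among genes reaching the floor on all 4 arrays, genes with opposite 2-fold differences, and in each list the 4 largest members (all in lists with fewer than 8), without predicted genes, small RNAs and receptor families. Members that only complete a count were named after their values were seen. Promoters were in the RefSeq table for 92 of 127 named genes. Calculations used Python 3.11.15, pandas 2.3.3 and numpy 2.4.6 and were checked on test arrays built with known differences. The alternatives were 3 other floors, no floor, raising low values to the floor, 2 normalizations, 1 probe set a gene, and the TNF-α arrays as references. The number of arrays limits the precision.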

Additional observations from a re-analysis of the deposited data

Results flagged for a closer look

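For 5 genes BTZ minus untreated was past 2-fold in opposite directions in the 2 media. Each direction is that of 1 culture against 1 culture, and the differences were not tested. Tnnc1, a troponin, and Tmem38a, a channel of the sarcoplasmic reticulum, were higher with BTZ in growth medium and lower in differentiation medium, with differences of differences of -3.592 and -3.549. Adam4, of the ADAM protease family, went the same way with -2.132. It stood at 3.56, 4.63, 5.45 and 4.38 (untreated growth medium, BTZ there, untreated differentiation medium, BTZ there), so only 1 of its arrays reached the floor. Ccl2, a chemokine, and Ccnd1, cyclin D1, were lower with BTZ in growth medium and higher in differentiation medium, with 2.523 and 3.379.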

How the results depend on the processing

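No paired analysis was possible because each group holds 1 array. Counts and list medians moved by less than 1.5-fold under the alternatives, other than as given here; with the floor on all 4 arrays the fat cell list gave no median. The sarcomere median ranged from -1.87 to -1.34, the mitosis median from 0.52 to 1.19 and the NRF2 median from 0.50 to 0.78. That of the endoplasmic reticulum list ranged from -0.12 to 0.27 and so did not keep its sign. The counts above and below 2-fold were between 310 and 517 and between 462 and 844; all of the 439 and 671 were called without a floor, and 310 and 462 of them reach the floor on all 4 arrays. With the TNF-α arrays as references 516 and 800 genes passed, of which 240 and 435 were also called with the untreated ones. There the cholesterol median was -1.02 in place of -0.42 and the NF-kB and chemokine median -0.43 in place of 0.16, and Pmaip1 (0.0778) and Fbxo32 (0.0394) changed sign. Ccnd1, Cth, Nqo1 and Chrng had 2.46, 1.91, 2.04 and -6.06 with these references. Of the 99 named genes past 2-fold 17 were no longer so, among them Hgf (0.41), Aldh1l2 (0.45) and Hmox1 (0.98). The 3 genes of the endoplasmic reticulum list above 2-fold were also among them: Hspa5 (0.60), Sdf2l1 (0.43) and Manf (0.79). This reference carries the TNF-α response, and whether the differences come from it or from the arrays was not tested. Raising low values to the floor took Adam4 (-0.36), Pgam2, Rplp2 and Nr4a3 under 2-fold, and shifting array medians took Srebf2. Signals near background limit the muscle genes in growth medium and the mitotic genes in differentiation medium.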

Other observations

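MicroRNA loci were read by the same arrays and count among the 13345 genes, but the rule for naming genes left them out. Of 467 measured loci 143 reached the floor, with 9 above and 5 below 2-fold (9.79% in either direction, against 8.32% of all genes) and a median of -0.00. Besides Mir133b, the loci below, chosen after their values were seen, were Mir362 (-2.59), Mir532 (-1.87), Mir5123 (-1.41) and Mir23a (-1.37). Mir362 stood at 3.59, 4.00, 5.92 and 3.74 and Mir532 at 4.73, 4.36, 6.80 and 4.56 (untreated growth medium, BTZ there, untreated differentiation medium, BTZ there), so each reached the floor on 1 array, the untreated differentiation culture. Mir23a stood at 7.57, 6.06, 8.09 and 5.20 and was lower with BTZ in both media. The 3p product of Mir23a in RefSeq, with its seed in capitals, does not share its seed with either Mir133b product.
mmu-miR-23a-3p: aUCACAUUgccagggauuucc

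Among 8160 probe sets above the floor with no gene named, 858 were above and 657 below 2-fold, 18.6% in either direction. Of the named genes 8.32% were past 2-fold in either direction. The balance of the unnamed probe sets was the reverse of that of named genes, of which 439 were above and 671 below. The source of either difference was not tested.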
